A study of Mus musculus with 12 samples.

Results

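The Fc receptor genes examined here were Fcer1g, Fcgr1, Fcgr2b, Fcgr3, Fcgr4, Fcrls and Fcgrt, 7 of the 55487 genes in the count table, chosen by name. All 7 were among the 15425 genes with enough reads to be tested. They were measured by RNA-sequencing of cortical CD11b-positive cells of male mice (CD11b marks microglia and other myeloid cells), with 3 mice and 1 library per mouse in each of 4 groups. The labels name the groups by strain and treatment. WT_Veh mice were WT animals that received PBS as vehicle (veh), WT_BRICHOS mice received rh Bri2 BRICHOS R221E instead, and APP_Veh and APP_BRICHOS mice were App NL-G-F animals given the one or the other. App NL-G-F mice are knock-in mice that carry a humanized amyloid-β sequence with familial Alzheimer mutations in their own App gene, so that amyloid accumulates without a transgene promoter, and rh Bri2 BRICHOS R221E is a recombinant form of the Bri2 chaperone domain with an exchanged residue. All 4 groups began at 9 months of age, were injected intravenously 24 times in 12 weeks (10 mg/kg of the protein where it was given, here called BRICHOS) and then had 4 weeks off treatment.

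Fc receptors bind the constant part of antibodies and so tie phagocytes to antibody-coated targets. In mice, FcγRI (Fcgr1), FcγRIII (Fcgr3) and FcγRIV (Fcgr4) bind IgG and activate the cell through the common γ chain encoded by Fcer1g, whose cytoplasmic tail carries an ITAM, a stretch with a pair of tyrosines that is phosphorylated by Src family kinases and then recruits the kinase Syk. FcγRIIb (Fcgr2b) binds IgG too, but its tail carries an ITIM that recruits the phosphatase SHIP1, and it is the inhibitory member. FcRn (Fcgrt) pairs with β2-microglobulin and returns IgG and albumin from endosomes to the cell surface, and Fcrls is an Fc receptor-like gene that is widely used as a microglial marker.

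The sequences that set these roles apart are the signalling stretches of the tails, shown here as coding bases with the tyrosine codons in capitals. They were read from the GENCODE transcripts of GRCm38. The stretch of Fcer1g covers residues 65 to 79 of 86 and holds 2 tyrosine codons, and that of Fcgr2b covers residues 317 to 322 of 340 and holds 1.
Fcer1g ITAM: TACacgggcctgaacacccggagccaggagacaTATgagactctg
Fcgr2b ITIM: atcaccTACtcacttctc

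Fcer1g (chromosome 1, 171229572 to 171234365), Fcgr2b (170958617 to 170976547), Fcgr3 (171051174 to 171064935) and Fcgr4 (171018920 to 171029761) lie close together on chromosome 1 of GRCm38. Fcgr1 (96282909 to 96293969) and Fcrls (87250758 to 87263738) are on chromosome 3 and Fcgrt (45092990 to 45103851) on chromosome 7, and Fcgr4 alone is on the plus strand. Fcgr2b and Fcgr3 descend from a common gene, and their longest identical stretch is 129 bases long and coding in both. It is shown because reads that fall inside it cannot be assigned to either gene by sequence.
Fcgr2b and Fcgr3: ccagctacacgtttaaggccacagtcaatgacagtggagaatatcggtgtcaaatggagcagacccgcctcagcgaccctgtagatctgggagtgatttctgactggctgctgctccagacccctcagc
Of the 50-base windows of the main Fcgr3 transcript, 12.8% also occur in Fcgr2b, and 12.5% of those of Fcgr2b occur in at least 1 of 145 other genes, whereas none of the windows of the other 5 genes is shared. How the counting treated such reads is not given in the sources used here, so part of the Fcgr2b and Fcgr3 counts is uncertain. Fcgr2b also shares 155 exon bases with the antisense gene Gm38204, and whether the counting used strand is not stated.

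The promoters are shown for 4 genes that differ in their values, Fcer1g and Fcgr2b with the largest rises, and Fcgr1 and Fcgrt, which were lower in APP_Veh mice. Each is the 250 bases before the RefSeq transcript start in GRCm38.p6, read along the gene's strand. Capitals mark AGGAAG on either strand, a core bound by the myeloid factor PU.1, and TTCNNNGAA, the GAS element bound by STAT proteins, which reads alike on both strands.
Fcer1g (chr1:171234350-171234599, minus strand): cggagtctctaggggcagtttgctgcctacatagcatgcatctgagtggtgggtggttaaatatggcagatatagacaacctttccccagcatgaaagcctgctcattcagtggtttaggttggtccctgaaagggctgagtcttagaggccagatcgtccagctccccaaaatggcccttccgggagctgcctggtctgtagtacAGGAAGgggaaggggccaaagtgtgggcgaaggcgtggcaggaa
Fcgr2b (chr1:170976072-170976321, minus strand): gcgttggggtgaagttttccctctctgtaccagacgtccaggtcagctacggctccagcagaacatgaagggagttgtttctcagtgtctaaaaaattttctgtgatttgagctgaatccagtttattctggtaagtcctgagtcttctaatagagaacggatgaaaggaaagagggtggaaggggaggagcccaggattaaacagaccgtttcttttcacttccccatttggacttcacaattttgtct
Fcgr1 (chr3:96293970-96294219, minus strand): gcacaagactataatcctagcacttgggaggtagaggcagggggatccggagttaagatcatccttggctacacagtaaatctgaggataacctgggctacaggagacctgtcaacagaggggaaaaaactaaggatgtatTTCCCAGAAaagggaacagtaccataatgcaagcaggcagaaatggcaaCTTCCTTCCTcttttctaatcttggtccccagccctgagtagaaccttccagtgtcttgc
Fcgrt (chr7:45103823-45104072, minus strand): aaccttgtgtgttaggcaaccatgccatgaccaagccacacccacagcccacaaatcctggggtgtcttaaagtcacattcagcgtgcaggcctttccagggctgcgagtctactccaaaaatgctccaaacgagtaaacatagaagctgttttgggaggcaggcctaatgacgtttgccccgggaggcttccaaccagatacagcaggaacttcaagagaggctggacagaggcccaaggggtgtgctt
AGGAAG was found in the windows of 5 of the 7 genes, against 29.2% of 27025 mouse promoters of this length, and was not in those of Fcgr2b and Fcgrt. The GAS letters were in the window of 1 of the 7, Fcgr1, where they began 109 bases before the start, against 7.2% of all promoters. The windows of Fcgr2b and Fcgr3 lie inside the gene spans given above, so the matches found there depend on the transcript start used. These matches are letters in a window and were not tested as binding sites.

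Library totals ran from 12433402 to 17889654 counts, so that 3 counts, taken as the limit of detection, equal 0.169 to 0.227 CPM. All 10 microglial markers were present in every group, at a summed 25200 to 31800 CPM, and the cells also held RNA of other types: oligodendrocyte markers summed to 3210 to 16900 CPM. Levels are CPM (a gene's count relative to the library total) scaled with TMM factors, and fold changes and adjusted p-values come from edgeR's quasi-likelihood test over all 15425 tested genes, unless another test is named. TMM factors were 1.045 to 1.104 in WT and 0.8744 to 0.9525 in App NL-G-F libraries, so that the choice of scaling bears on every comparison between the strains. With the library size alone, the median log2 fold change of all genes in the knock-in against WT mice moved from -0.02 to -0.21 under veh and from -0.04 to -0.31 under BRICHOS. Since these are bulk samples, fewer cells of a type and less RNA per cell cannot be told apart.

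The first question was how the genes differed between the strains under veh. Of the 7 genes, 4 were upregulated (Fcer1g, Fcgr2b, Fcgr3 and Fcrls), 2 were downregulated (Fcgr1 and Fcgrt), and Fcgr4 did not pass the test. Of all tested genes 20.1% were called higher and 16.9% lower. The 3 and 3 mice did not overlap for any of the 7 genes, 5 of them higher and 2 lower, while this held for 50.9% of all tested genes in either direction. The median log2 fold change of the 7 was 0.31, against -0.02 over all tested genes. With the library size alone, 3 of the 7 were called higher and 2 lower, and over all genes the calls moved from 3099 higher and 2611 lower to 2004 higher and 5198 lower.

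The common γ chain Fcer1g was at 490.5, 502 and 486 CPM in WT_Veh mice and at 437, 521 and 525 CPM in WT_BRICHOS mice. It was at 737.5, 749 and 777 CPM in APP_Veh mice and at 790, 953 and 839 CPM in APP_BRICHOS mice. Every App NL-G-F mouse was above every WT mouse, and the highest value was that of 1 APP_BRICHOS mouse. Between APP_Veh and WT_Veh mice Fcer1g was 1.53-fold higher (log2 fold change 0.615 ± 0.08, SE, edgeR adjusted p = 0.000127).

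The inhibitory receptor Fcgr2b was at 317, 331 and 344 CPM in WT_Veh and at 335, 350.1 and 356 CPM in WT_BRICHOS mice. In App NL-G-F mice it was at 540.0, 525 and 580.5 CPM under veh and at 540.4, 593 and 628 CPM under BRICHOS. The strains did not overlap, and the groups of 1 strain did. Of the 7 genes Fcgr2b had the largest fold change under veh, 1.66-fold (log2 0.73 ± 0.06, SE, edgeR adjusted p = 4.73e-06), with an interval that overlaps that of Fcer1g.

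**Figure D1:**
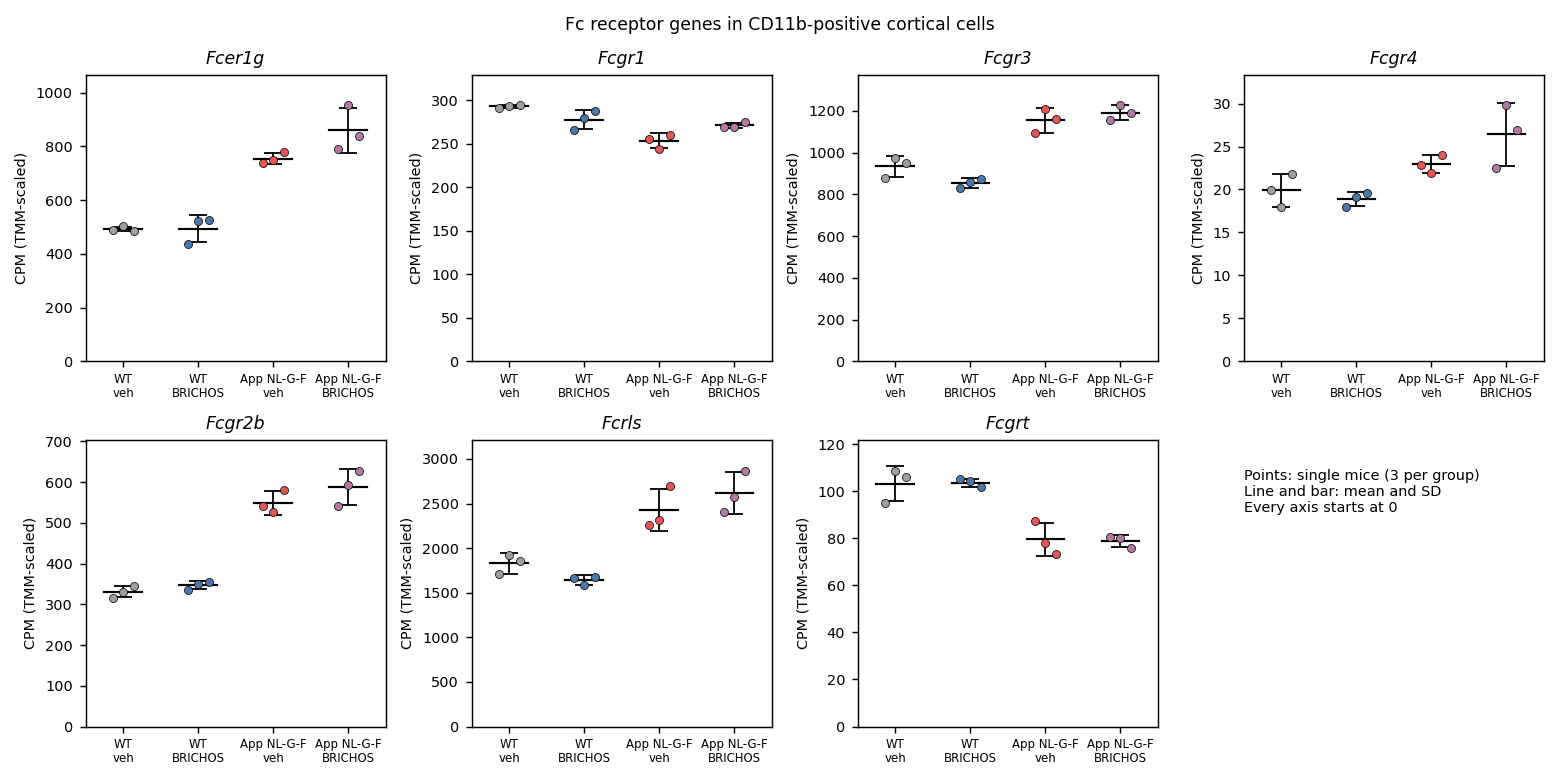
Levels of the 7 Fc receptor genes in CPM (y axis, from 0) in the 4 groups (x axis), with a point for each mouse and the mean and SD of 3 mice. In Fcer1g, Fcgr2b, Fcgr3, Fcgr4 and Fcrls all App NL-G-F mice lie above all WT mice, and in Fcgrt all lie below.

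The activating IgG receptors did not move together. Fcgr3, the low-affinity receptor FcγRIII, was at 876, 972.5 and 952 CPM in WT_Veh, 831, 861 and 876 CPM in WT_BRICHOS, 1092, 1208 and 1163 CPM in APP_Veh and 1155, 1227 and 1192 CPM in APP_BRICHOS mice. It was 1.24-fold higher in APP_Veh than WT_Veh mice (log2 0.31 ± 0.06, SE, edgeR adjusted p = 0.00189), but at 0.115 its log2 fold change no longer passed the test with the library size alone (adjusted p = 0.0711). Its strains did not overlap under either treatment.

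Fcgr1, the high-affinity receptor FcγRI, went the other way under veh. It was at 291, 294 and 294.5 CPM in WT_Veh and at 256, 244 and 261 CPM in APP_Veh mice, which is 1.16-fold lower (log2 fold change -0.21 ± 0.04, SE, edgeR adjusted p = 0.00327). The log2 fold change was -0.40 with the library size alone (edgeR adjusted p = 4.74e-05). With BRICHOS it was at 266, 279.9 and 288 CPM in WT and at 269, 269.7 and 275 CPM in App NL-G-F mice, and these groups overlapped.

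Fcgr4, the intermediate-affinity receptor FcγRIV, was the least abundant of the 7, with 285 to 466 reads per library. It was at 19.9, 17.97 and 21.8 CPM in WT_Veh, 17.95, 19.15 and 19.6 CPM in WT_BRICHOS, 22.9, 21.9 and 24.0 CPM in APP_Veh and 22.5, 29.8 and 27.0 CPM in APP_BRICHOS mice. The strains did not overlap, but under veh the log2 fold change of 0.205 did not pass the test (95% interval -0.03 to 0.44, edgeR adjusted p = 0.157).

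Fcrls was the most abundant in CPM, at 1705, 1928 and 1851 CPM in WT_Veh and 1664, 1583 and 1680.0 CPM in WT_BRICHOS mice. It reached 2264, 2318 and 2699 CPM in APP_Veh and 2402, 2574 and 2870.0 CPM in APP_BRICHOS mice. All App NL-G-F mice were above all WT mice, by 1.33-fold under veh (log2 0.41 ± 0.09, SE, edgeR adjusted p = 0.00347). The log2 fold change was 0.22 with the library size alone, close to the threshold (edgeR adjusted p = 0.0444). The summed microglial markers were 28800 to 31800 CPM in WT_Veh and 25200 to 27000 CPM in APP_Veh mice, and 8 of the 10 were downregulated and 1 was upregulated, so that Fcrls differed in direction from most of them.

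Fcgrt, the heavy chain of FcRn, was at 95.04, 109 and 106 CPM in WT_Veh and 105, 104 and 102 CPM in WT_BRICHOS mice. It was at 87.35, 77.98 and 73.4 CPM in APP_Veh and 80.5, 80.2 and 76.0 CPM in APP_BRICHOS mice, all below all WT mice. Fcgrt was 1.3-fold lower under veh (log2 fold change -0.38 ± 0.07, SE, edgeR adjusted p = 0.00134), and its log2 fold change was -0.565 with the library size alone. Its partner B2m, β2-microglobulin, went the opposite way and was 2.05-fold higher (edgeR adjusted p = 2.44e-06). Endothelial cells, which are rich in FcRn, had 6 of 7 markers downregulated in the same comparison, with a sum of 601 to 679 CPM in WT_Veh and 441 to 589 CPM in APP_Veh mice. Border macrophage markers summed to 1390 to 1510 CPM and 521 to 696 CPM in these groups, with 7 of 8 downregulated, and neutrophil markers to 39.6 to 446 CPM and 15.2 to 39.4 CPM, with 9 of 9 downregulated. Oligodendrocyte markers summed to 9670 to 16900 CPM in WT_Veh and 3210 to 5630 CPM in APP_Veh mice, with 2 of 7 downregulated. Astrocyte markers were higher, 429 to 603 CPM against 1410 to 4500 CPM, with 8 of 8 upregulated. The part of these other cells in the values of the Fc receptor genes was not tested.

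The second question was whether the strains differed in these genes among mice given BRICHOS. This comparison shares no mouse with the first, but both come from the same fit and use a common estimate of the spread. Here 5 of the 7 genes were upregulated and 1 was downregulated, beside 20.8% called higher and 21.8% called lower among all tested genes. The mice did not overlap for 6 of the 7, against 51.7% of all tested genes, and the median log2 fold change was 0.48 against -0.04. The upregulated genes were Fcer1g (log2 0.80, edgeR adjusted p = 1.49e-05), Fcgr2b (0.76, adjusted p = 3.25e-06), Fcrls (0.67, adjusted p = 9.87e-05), Fcgr4 (0.48, adjusted p = 0.00357) and Fcgr3 (0.48, adjusted p = 6.84e-05). Fcgrt was downregulated (-0.39, adjusted p = 0.000828), and Fcgr1 did not pass the test, with a log2 fold change of -0.035 (95% interval -0.13 to 0.06, adjusted p = 0.548). With the library size alone the split became 4 higher and 2 lower, since Fcgr4 was no longer called (0.21, adjusted p = 0.0994) and Fcgr1 was called lower (-0.305, adjusted p = 0.000284), and over all genes 1590 were higher and 7008 lower in place of 3202 and 3358. Border macrophage markers summed to 1640 to 1790 CPM in WT_BRICHOS and 537 to 643 CPM in APP_BRICHOS mice, with 7 of 8 downregulated, and astrocyte markers to 432 to 788 CPM and 653 to 1890 CPM, with 1 of 8 upregulated. Endothelial markers summed to 515 to 723 CPM and 372 to 432 CPM in these groups, with 6 of 7 downregulated, monocyte markers to 107 to 142 CPM and 32.6 to 49.6 CPM, with 6 of 7 downregulated, and choroid plexus markers to 3210 to 6700 CPM and 641 to 959 CPM, with 7 of 7 downregulated. Neutrophil markers had 6 of 9 downregulated and dendritic cell markers 3 of 4 tested. The part of these cells in the values was not tested.

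**Figure D2:**
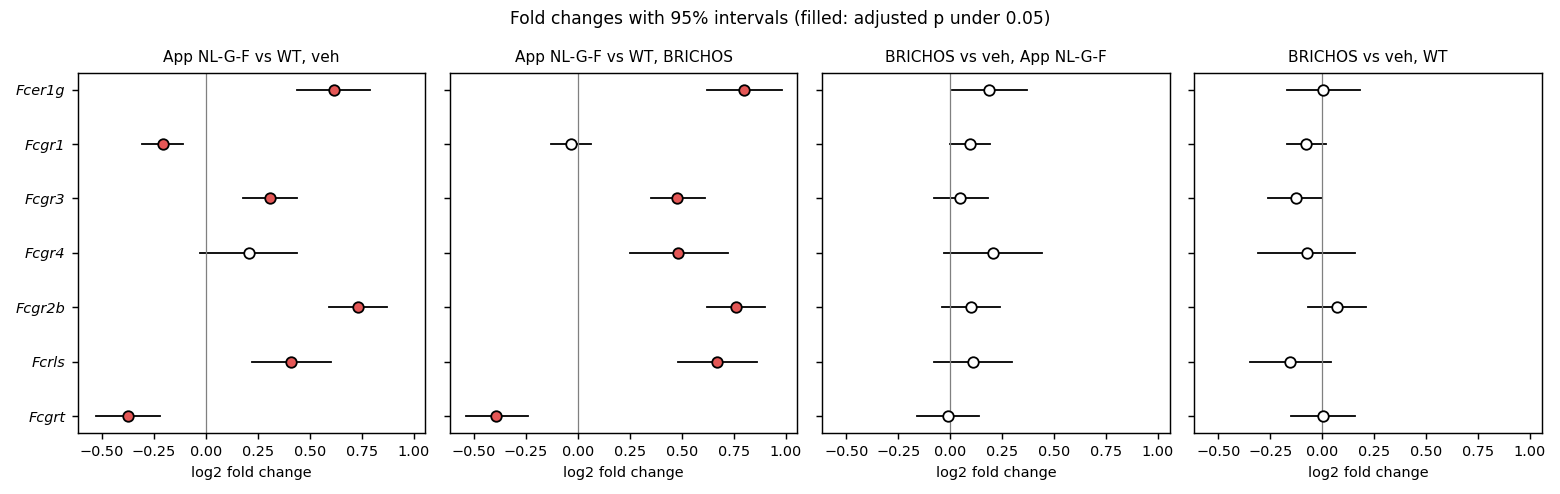
Log2 fold changes (x axis) of the 7 genes (y axis) in 4 comparisons with 95% intervals, filled where the adjusted p-value is under 0.05, with TMM scaling. Between strains 6 of 7 are filled in each panel, with Fcgr4 open under veh and Fcgr1 open under BRICHOS, and between treatments none is filled.

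The balance of activating to inhibitory receptors was described by the log2 ratio of each gene to Fcgr2b within a mouse, which does not depend on the scaling between libraries. For Fcgr1 it was -0.17 ± 0.05 (SD, n = 3) in WT_Veh, -0.32 ± 0.02 in WT_BRICHOS, -1.11 ± 0.04 in APP_Veh and -1.11 ± 0.10 in APP_BRICHOS mice. In reads, Fcgr1 was at 0.887 of Fcgr2b in WT_Veh and at 0.463 in APP_Veh mice. For Fcgr3 the log2 ratio was 1.497 ± 0.05, 1.302 ± 0.006, 1.07 ± 0.11 and 1.02 ± 0.09 in the same order of groups, and for Fcgr4 it was -4.05 ± 0.13, -4.19 ± 0.02, -4.57 ± 0.02 and -4.47 ± 0.15. These 3 ratios were lower in App NL-G-F than in WT mice without overlap under either treatment, which also held for the ratio to Fcgr2b of 72.8% of all tested genes under veh and of 77.1% under BRICHOS. A lower ratio to a gene that itself rose is therefore common among all genes.

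The ratio of Fcer1g to Fcgr2b was 0.58 ± 0.07, 0.505 ± 0.11, 0.46 ± 0.05 and 0.55 ± 0.13 (log2, SD, n = 3) in the same order, and all groups overlapped with each other. The ratios of Fcgr1 and of Fcgr3 to Fcgr2b were also lower in WT_BRICHOS than WT_Veh mice without overlap, with differences of -0.147 and -0.195 on the log2 scale, as was the ratio to Fcgr2b of 18.1% of all tested genes. The ratios are given as a description with no model fitted to them, and an exact two-sided permutation test of 3 against 3 mice cannot go below 0.1.

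**Figure D3:**
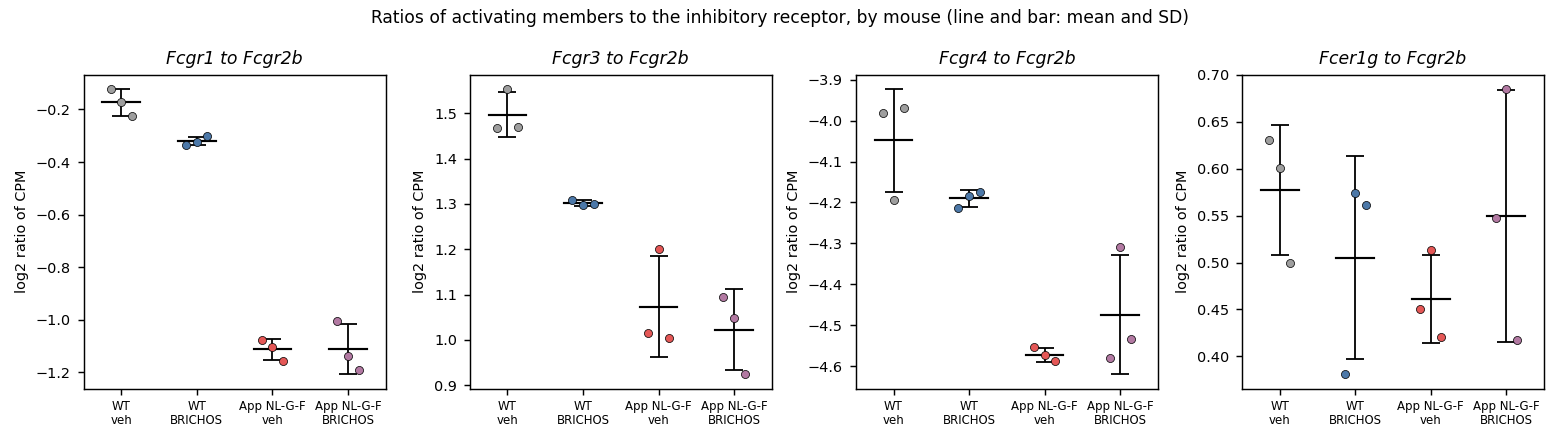
Log2 ratio of the CPM of Fcgr1, Fcgr3, Fcgr4 and Fcer1g to that of Fcgr2b (y axis, a different range in each panel) in the 4 groups (x axis), with a point per mouse and the mean and SD. The first 3 ratios lie lower in all App NL-G-F than in all WT mice, and the ratio of Fcer1g overlaps in all groups.

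To compare levels between genes, CPM was divided by the length of the merged exons in kilobases. In WT_Veh mice the order was Fcrls (783 ± 48.7 CPM per kb, SD, n = 3), Fcer1g (564 ± 9.46), Fcgr3 (538 ± 29.2), Fcgr1 (113 ± 0.722), Fcgr2b (57.1 ± 2.36), Fcgrt (49.1 ± 3.47) and Fcgr4 (15.9 ± 1.54). The mice of Fcer1g and Fcgr3 overlapped within this group. In APP_Veh mice the order was the same, from Fcrls (1040.0 ± 101 CPM per kb) to Fcgr4 (18.3 ± 0.832), and Fcgr1 (98.0 ± 3.30) and Fcgr2b (94.7 ± 4.94) overlapped there. With the length of the main transcript, Fcgr2b (155 ± 8.07 CPM per kb) stood above Fcgr1 in APP_Veh mice, and Fcer1g (1120.0 ± 30.3) above Fcrls (1068 ± 104) with overlapping mice, so these orders depend on the length used. Together the 7 genes took 0.428 ± 0.0134% of the counts in WT_Veh, 0.409 ± 0.00664% in WT_BRICHOS, 0.491 ± 0.0251% in APP_Veh and 0.510 ± 0.0266% in APP_BRICHOS mice (SD, n = 3).

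The third question was whether BRICHOS changed the genes within a strain. In App NL-G-F mice none of the 7 genes passed the test in edgeR or DESeq2, and of all tested genes 0.00648% passed in edgeR and 0.752% in DESeq2's Wald test. At an unadjusted p-value under 0.05 there were 2 of the 7 in edgeR, Fcer1g (log2 0.19, edgeR adjusted p = 0.427) and Fcgr1 (log2 0.10, adjusted p = 0.458), both higher in all 3 APP_BRICHOS than in all 3 APP_Veh mice. This share stands beside 10.8% of all tested genes at that level and 13.5% without overlap, and DESeq2 likewise had 2 of the 7 at that level, beside 9.78% of all. In edgeR the log2 fold change of Fcer1g was 0.12 without APP_BRICHOS replicate 2. The number of the 7 at that level was 0 without APP_Veh replicate 2 and 3 without replicate 3. Astrocyte markers summed to 1410 to 4500 CPM under veh and 653 to 1890 CPM under BRICHOS, with 8 of 8 lower at an unadjusted p-value under 0.05 and none called. Endothelial markers summed to 441 to 589 CPM and 372 to 432 CPM without overlap, with 6 of 7 lower at that level and none called, and the part of both in these values was not tested. The 95% intervals of the log2 fold change were 0.01 to 0.37 for Fcer1g, 0.00 to 0.19 for Fcgr1, -0.04 to 0.24 for Fcgr2b, -0.08 to 0.18 for Fcgr3, -0.03 to 0.44 for Fcgr4, -0.08 to 0.30 for Fcrls and -0.16 to 0.14 for Fcgrt, which do not leave out a small change in either direction for the last 5.

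In WT mice none of the 7 genes and 0% of all tested genes passed the test in edgeR, and none of the 7 had an unadjusted p-value under 0.05, against 11.4% of all tested genes. DESeq2's Wald test called none of the 7 either, beside 0.519% of all tested genes, and had 1 of them at an unadjusted p-value under 0.05, beside 9.58%. The smallest p-value was that of Fcgr3 (log2 fold change -0.13, 95% interval -0.26 to 0.00, edgeR adjusted p = 0.449). Fcgr1, Fcgr3 and Fcrls were lower in all 3 WT_BRICHOS than in all 3 WT_Veh mice, 3 of 7 beside 17.5% of all tested genes in either direction. For Fcgr3 this was nearly a tie, 875.9 CPM in WT_BRICHOS replicate 3 against 876.4 CPM in WT_Veh replicate 1. In this comparison choroid plexus markers summed to 850 to 3870 CPM under veh and 3210 to 6700 CPM under BRICHOS, with 4 of 7 higher at an unadjusted p-value under 0.05. Border macrophage markers summed to 1390 to 1510 CPM and 1640 to 1790 CPM without overlap, with 5 of 8 higher at that level, and monocyte markers to 75.7 to 103 CPM and 107 to 142 CPM, with 4 of 7 higher. No marker of these 3 lists passed the adjusted test, and their part in the values was not tested.

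The treatment difference was also compared between the strains within the fit. None of the 7 genes passed in edgeR or DESeq2, beside 0.00648% of all tested genes in edgeR and 1.55% in DESeq2. At an unadjusted p-value under 0.05 there was 1 of 7, Fcgr1, in edgeR, against 14.8% of all, and there were 3 of 7 in DESeq2, against 13.6%. The difference of Fcgr1 was 0.17 on the log2 scale (edgeR adjusted p = 0.244). A difference between the strains in the response to the treatment was therefore not shown for any of the 7 genes.

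The partners and signalling genes of the receptors were taken from lists. A list of 13 other Fc receptors and Fc receptor-like genes also held B2m, the partner of FcRn and not itself an Fc receptor. Of these 13, 5 were tested in APP_Veh against WT_Veh mice, 2 were upregulated (B2m and Fcrlb) and 2 downregulated. Among all tested genes 20.1% were called higher and 16.9% lower. B2m is given above, and Fcrl1, an Fc receptor-like gene of B cells, was at 35.9 to 38.2 CPM in WT_Veh and 14.4 to 19.0 CPM in APP_Veh mice (2.14-fold lower, edgeR adjusted p = 0.000129). B cell markers summed to 44.2 to 53.6 CPM in WT_Veh and 84.7 to 101 CPM in APP_Veh mice. From the 6 tested, 1 marker was upregulated and 1 downregulated, and their median log2 fold change was -0.68, opposite in direction to the sum. The part of B cells in the value of Fcrl1 was not tested. Fcrlb was called higher (adjusted p = 0.0398) on 3 to 4 reads per WT_Veh and 10 to 15 per APP_Veh library, and it lost the call with the library size alone, where 1 gene was higher and 2 lower. Trim21, the cytosolic antibody receptor, was called lower (log2 fold change -0.37, adjusted p = 0.0343) although its groups overlapped. The count fell from 4 to 2 without replicate 1 or 3 of the WT_Veh or replicate 1 or 2 of the APP_Veh mice. Fcer1a and Ms4a2, the other chains of the mast cell IgE receptor that also uses Fcer1g, were too low to be tested.

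Of 10 ITAM adaptors and receptors that pair with Fcer1g 7 were tested. From these, 1 was upregulated and 3 were downregulated, beside 20.1% and 16.9% of all tested genes. Tyrobp, the ITAM adaptor DAP12 of microglial receptors such as TREM2, was at 745 to 784 CPM in WT_Veh and 2106 to 2471 CPM in APP_Veh mice, a rise of 2.98-fold (log2 1.575 ± 0.09, SE, edgeR adjusted p = 2.12e-07). The 3 that were downregulated were receptors, Clec4n (Dectin-2, log2 fold change -0.92, adjusted p = 0.00675), Lilra5 (-0.81, adjusted p = 0.000302) and Lilra6 (-1.06, adjusted p = 0.0392). Lilra6 had only 14 to 23 reads per WT_Veh and 4 to 13 per APP_Veh library. The adaptors Fcer1g and Tyrobp thus rose while these receptors fell, under both scalings. Markers of other myeloid cells were lower in the same comparison. Besides those of border macrophages and neutrophils given above, monocyte markers summed to 75.7 to 103 CPM in WT_Veh and 49 to 60.6 CPM in APP_Veh mice, with 3 of 7 downregulated, and dendritic cell markers to 71.8 to 85.6 CPM and 28.5 to 37 CPM, with 3 of the 4 that could be tested downregulated. Their part in the values of these receptors was not tested.

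Among the activating kinases and adaptors downstream 23 of 24 were tested. From these, 4 were upregulated and 15 downregulated, beside 20.1% and 16.9% of all tested genes. Their median log2 fold change was -0.23 against -0.02 over all genes. Of the Src family kinases Fgr rose 4.88-fold, from 11.2 to 11.6 CPM in WT_Veh to 49.3 to 59.2 CPM in APP_Veh mice (edgeR adjusted p = 3.59e-08), and Fyn rose 2.30-fold (adjusted p = 2.5e-06). Lyn, of the same family, fell by 0.38 on the log2 scale (adjusted p = 8.62e-05). Syk, the kinase that binds the phosphorylated ITAM, was at 236 to 253 CPM in WT_Veh and 171.5 to 173 CPM in APP_Veh mice and was 1.41-fold lower (adjusted p = 7.42e-06).

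Lat2, a membrane adaptor, rose (log2 0.68, edgeR adjusted p = 0.000434), and so did Pik3cb, a catalytic subunit of PI3 kinase (log2 0.21, adjusted p = 0.0154), but Pik3cb was at 0.02 with the library size alone. The exchange factor Vav2 (log2 fold change -0.77, adjusted p = 2.38e-05), the phospholipase Plcg1 (-0.685, adjusted p = 2.94e-05) and the PI3 kinase subunit Pik3r1 (-0.58, adjusted p = 1.54e-05) fell. With the library size alone 3 genes of this list were higher and 17 lower.

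Of the 11 inhibitory phosphatases and adaptors, all tested, 2 were upregulated and 5 downregulated, beside 20.1% and 16.9% of all tested genes. Ptpn6, the phosphatase SHP-1, rose 1.37-fold (edgeR adjusted p = 3.55e-05), and Inppl1, the phosphatase SHIP2, rose 1.48-fold (adjusted p = 4.13e-05). Inpp5d, the phosphatase SHIP1 that the Fcgr2b tail recruits, was at 1012 to 1039 CPM in WT_Veh and 713 to 781 CPM in APP_Veh mice and was 1.39-fold lower (adjusted p = 2.86e-05). The adaptor Dok3 was 3.04-fold lower (adjusted p = 4.28e-06), Ptpn11, the phosphatase SHP-2, fell by 0.42 (adjusted p = 0.0294) and Csk, which restrains Src kinases, fell by 0.35 on the log2 scale (adjusted p = 0.000274). Cbl, a ubiquitin ligase of active kinases, was the fifth that fell (-0.335, adjusted p = 0.00102).

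**Figure D4:**
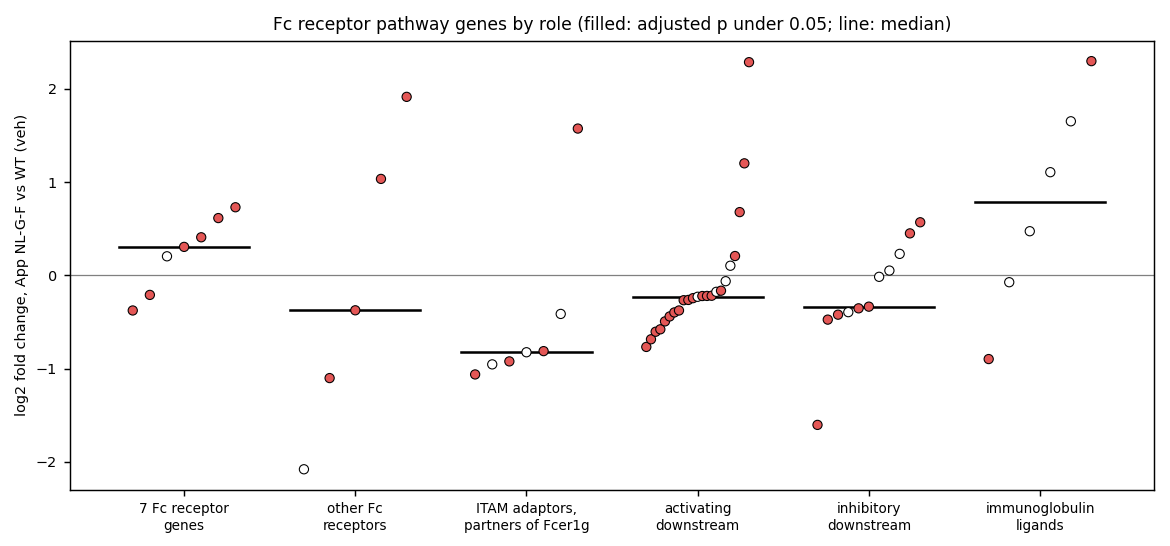
Log2 fold change between APP_Veh and WT_Veh mice (y axis, TMM scaling) of each tested gene of 6 lists (x axis), filled where the adjusted p-value is under 0.05, with a line at the list's median. The 7 Fc receptor genes have a median of 0.31 and the activating downstream genes of -0.23.

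Immunoglobulin genes, among them those of IgG, the ligand of the Fcγ receptors, differed widely in level. Ighm, the heavy chain of IgM, was at 369.8 to 413.4 CPM in WT_Veh and 346.3 to 399.2 CPM in APP_Veh mice and did not pass the test (log2 fold change -0.07, 95% interval -0.26 to 0.12, edgeR adjusted p = 0.54). The light chain Igkc was only at 0.685 to 3.20 CPM in WT_Veh and 1.26 to 3.02 CPM in APP_Veh mice. Which cells held the Ighm RNA was not tested. The IgG heavy chains Ighg1, Ighg2b, Ighg2c and Ighg3 had at most 15 reads in any veh-treated library. With BRICHOS, 1 library, WT_BRICHOS replicate 2, held 287 reads of Ighg2c, 62 of Ighg2b and 11 of Ighg1, and 250 of the light chain Igkc. Of 13 listed genes 6 were tested, and under veh 1 was called higher and 1 lower, beside 20.1% and 16.9% of all tested genes. The lower gene was Ighd, the heavy chain of IgD, at 14.5 to 15.8 CPM in WT_Veh and 6.82 to 9.07 CPM in APP_Veh mice (log2 fold change -0.90, edgeR adjusted p = 0.000495). Jchain, the joining chain of IgM and IgA, was called higher (adjusted p = 0.0239) on 1 to 3 reads per WT_Veh and 3 to 18 per APP_Veh library, and the groups overlapped. The count of 2 became 1 without WT_Veh replicate 1 or 2 or APP_Veh replicate 1. The count table gives RNA in the isolate, which also held RNA of other cell types, and not antibody bound to cells.

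Among mice given BRICHOS the strains differed in the same lists as follows. Of the 7 tested partners of Fcer1g 1 was called higher and 5 lower, of the 23 activating genes 5 were higher and 11 lower, and of the 11 inhibitory genes 2 were higher and 5 lower, beside 20.8% called higher and 21.8% lower among all tested genes. These counts were 1 and 6, 4 and 17, and 2 and 7 with the library size alone. Tyrobp (log2 fold change 1.84, edgeR adjusted p = 5.75e-08), Fgr (1.72, adjusted p = 2.14e-07) and Syk (-0.42, adjusted p = 2.41e-05) were among the genes called. Of the 5 tested genes of the other Fc receptor list 1 was higher, the FcRn partner B2m (log2 fold change 1.21, edgeR adjusted p = 6.67e-07), and 1 was lower. Of the 6 immunoglobulin genes 0 were higher and 1 lower. These counts were 1 and 3, and 0 and 3, with the library size alone. Fcrlb (edgeR adjusted p = 0.123), Trim21 (adjusted p = 0.112) and Jchain (log2 fold change -0.711, adjusted p = 0.303), called under veh, were not called under BRICHOS. Between treatments no gene of any of these lists passed edgeR's test in either strain. At an unadjusted p-value under 0.05 there were 1 of 7 partners of Fcer1g, 2 of 23 activating, 0 of 11 inhibitory and 1 of 6 immunoglobulin genes in App NL-G-F mice. Of all tested genes 10.8% reached that level in these mice. In WT mice the counts were 3, 4, 2 and 2, beside 11.4% of all tested genes. Such counts were not taken as changes.

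For each of the 7 genes the 3 genes with the most similar log2 CPM over the 12 libraries were listed by Pearson's r, as a description, since the libraries share their strain and treatment. They were Fbxw4, Cndp2 and Ctsh for Fcer1g (r of 0.9938 to 0.9911), Shisa5, Lrpap1 and Sil1 for Fcgr2b (0.9958 to 0.9947), and Rnf41, Ctss and Tmem50a for Fcgr3 (0.9908 to 0.9839). For Fcrls they were AI506816, Itgb5 and Ifnar2 (0.9916 to 0.9869), and for Fcgr4 Ncln, Ino80b and Lmo2 (0.9461 to 0.9357). For the 2 genes that were lower they were Abi3, Pik3ap1 and Tnfaip8l2 for Fcgr1 (0.9556 to 0.9406) and Fam72a, Cfap74 and Gtf2h2 for Fcgrt (0.9782 to 0.9647). Among the 7 themselves, r was 0.97 between Fcer1g and Fcgr2b and -0.93 between Fcgr2b and Fcgrt over the 12 libraries, and 0.48 and -0.21 after the group means were taken out.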

How the data were processed

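CD11b-positive cells of 12 mice were analysed, grouped by the library titles. Per the labels and methods, the authors trimmed reads with Cutadapt, aligned them to GRCm38 with STAR (2.6.1d in the submitters' notes, another version in the methods) and counted them with featureCounts 1.5.1, and they deposited raw counts per gene. The strand setting is not given in the sources used here. IDs were named with GENCODE M21. Using R 4.3.3, edgeR 4.0.16 kept genes by filterByExpr (minimum count 10), scaled them by TMM and fitted a mean for each of 4 groups by quasi-likelihood. Standard errors are the absolute log2 fold change over the root of F, and log2 CPM used a prior count of 2. Adjusted p-values (Benjamini-Hochberg, threshold 0.05) cover all 15425 genes. The tests behind them set each difference against the spread between mice, estimated jointly over the 4 groups. DESeq2 1.42.0, other scalings and filters, a log2 cutoff of 1, the replicate number as a block and each omitted library were alternatives. The test was checked on simulated data, where it missed part of the genes with changes of the size seen here. A first version of this check did not reach the recovery set for it and was replaced by one over more fold sizes. Figures used matplotlib 3.10.9 in Python 3.11.15. The genes and lists were chosen with earlier results of these data known. From each list, up to 4 genes a direction that passed the test without overlap were named, those with the largest change first, and Syk, Lyn, Trim21, Cbl, Jchain, Ighm, Ighg2b and untested genes were named after their values were seen. 1 listed gene is not reported by name.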

Additional observations from a re-analysis of the deposited data

How the results depend on the processing

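Of the 7 Fc receptor genes, 6 were called between the strains under veh and 6 under BRICHOS, and both counts were 6 without any 1 of the 12 libraries. With an added cutoff of 1 on the absolute log2 fold change both counts were 0, since no gene of the 7 changed that much, and the lists then held 2 (ITAM adaptors and partners), 2 (activating), 1 (inhibitory) and 1 (immunoglobulin) called genes, and the unadjusted counts were 0 for BRICHOS in App NL-G-F mice and 0 for the difference between strains. With the library size alone the log2 fold change of Fcgr3 under veh was 0.115, those of Fcgr1 and Fcgr4 under BRICHOS were -0.305 and 0.209, and both unadjusted counts were 0. With the fit restricted to the groups compared, 2 genes of the other Fc receptor list and 1 immunoglobulin gene were called. In App NL-G-F mice 0 of the 7 then had an unadjusted p-value under 0.05. This count was 1 without a filter and 1 with at least 10 counts in every library, where 1 immunoglobulin gene was called. In WT mice the unadjusted count was 1 with DESeq2's Wald test and 2 without a filter, and for the difference between strains it was 3 and 3. No gene of the 7 passed the adjusted test between treatments under any alternative.

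Leaving out each library gave 2 to 4 genes of the other Fc receptor list and 1 to 2 immunoglobulin genes called. The unadjusted counts were 0 to 3 in App NL-G-F mice, 0 to 1 in WT mice and 1 to 3 for the difference between strains. The log2 ratio of Fcer1g to Fcgr2b between strains under BRICHOS was -0.023 to 0.111. Beside that ratio, signs of the Fc receptor genes examined here turned only in log2 fold changes that were not called. For Fcgrt these were 0.004 with DESeq2's size factors and 0.004 with its Wald test in App NL-G-F mice (-0.065 to 0.077 without 1 library), -0.012 without a filter in WT mice (-0.056 to 0.041) and 0.003 without a filter in the difference between strains (-0.067 to 0.068). For Fcer1g in WT mice it was -0.013 without a filter (-0.042 to 0.082), for Fcgr3 in App NL-G-F mice -0.003 with the library size alone, and for Fcgr2b in the difference between strains -0.053 with the library size alone (-0.019 to 0.088 without 1 library). In the list of activating genes, Rac1 was called higher between strains under BRICHOS (log2 fold change 0.206, edgeR adjusted p = 0.0253). With the library size alone its log2 fold change turned to -0.065 and was not called (edgeR adjusted p = 0.391). The cause of the turned signs was not tested.

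The labels do not say whether equal replicate numbers mark paired mice, and the main fit did not pair them. Between strains, the deviations from the group means of equally numbered libraries correlated at 0.056, 0.141 and 0.174 under veh. Under BRICHOS these correlations were 0.218, -0.015 and 0.04. As a hint from the data, 5 of 6 libraries correlated best with the one of their own number under veh and 3 of 6 under BRICHOS. Between treatments this held for 5 of 6 libraries in WT and 3 of 6 in App NL-G-F mice. With the replicate block the calls over all genes moved from 5710 to 5991 under veh and from 6560 to 6822 under BRICHOS, 2 of the 7 in WT mice and 3 in the difference between strains had an unadjusted p-value under 0.05, and no adjusted call of the 7 changed.

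Depth limits Fcrlb and Jchain, with under 20 reads in every veh-treated library, and Lilra6, with at most 23 there. The 3 mice per group limit what can be seen between treatments. The scaling between the strains, reads shared by Fcgr2b and Fcgr3, and RNA of other cells bear on the levels.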
